A study of Mus musculus with 9 samples.

Results

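The genes described here are 9 genes of the primary, or azurophil, granule of the neutrophil, and they were followed in neutrophils sorted from mouse lung. They were chosen by symbol, with earlier results of these data known: *Mpo*, *Elane*, *Ctsg*, *Prtn3*, *Ms4a3*, *Fcnb*, *Prss57*, *Serpinb1a* and *Srgn*. All 9 were found among the 18325 genes with values, and all 9 passed the filter on low counts that left 14108 genes for testing. The study is bulk RNA sequencing of 9 libraries in 3 groups of 3, all from the lungs of female BALB/c mice. The groups Ly6Ghi and Ly6Glow are CD45+ neutrophils sorted for high or low surface Ly6g from mice injected in the mammary fat pad with 4T1-LM3, a lung-metastatic derivative of the 4T1 mammary carcinoma line, and taken at the stage labelled MACRO, when the lungs carry macrometastases. The group NL is Ly6g-high CD45+ neutrophils sorted from normal lung, for which the labels state no injection. The methods give an age of 6 to 8 weeks for the mice when bought, and whether a library is 1 mouse or a pool is not given in the sources used here, so the p-values measure the spread between these libraries. The normal lung assignment rests on the title and treatment labels, since the description of those libraries names only the Ly6g-high group.

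Azurophil granules are the first granules a developing neutrophil makes. Their proteins are transcribed at the promyelocyte stage and stored, and the genes are silenced as the cell matures, so that a mature neutrophil carries the proteins with little of the mRNA. Myeloperoxidase and the serine proteases of these granules kill microbes, cut matrix and signalling proteins, and take part in the formation of neutrophil extracellular traps. Of the 9 genes, *Mpo* encodes the peroxidase, and *Elane*, *Ctsg*, *Prtn3* and *Prss57* encode serine proteases. *Serpinb1a* encodes a cytosolic inhibitor of neutrophil serine proteases, and *Srgn* encodes serglycin, the proteoglycan on which granule proteases are packed. *Ms4a3* encodes a membrane protein of granulocyte and monocyte progenitors, and *Fcnb* encodes ficolin B, a lectin that is also assigned to gelatinase granules.

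The genes lie on 6 chromosomes (build GRCm38, RefSeq annotation). *Prss57* (chr10:79781474-79794684), *Prtn3* (chr10:79879667-79883174) and *Elane* (chr10:79886312-79888216) form a cluster in which *Prtn3* and *Elane* are adjacent on the forward strand, 3137 bases apart. *Mpo* lies at chr11:87793784-87804412, *Ctsg* at chr14:56099885-56102574, *Ms4a3* at chr19:11629499-11640851, *Fcnb* at chr2:28076479-28084910, *Serpinb1a* at chr13:32842092-32853206 and *Srgn* at chr10:62493833-62527445.

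Promoter sequences are shown for *Mpo* and the serine protease genes *Prtn3*, *Elane* and *Ctsg*, all 4 of which were called higher in Ly6Ghi than in NL and lower in Ly6Glow than in Ly6Ghi. Each line is the 250 bases before the RefSeq start site, read 5′ to 3′ on the strand of the gene (GRCm38), and capitals mark matches to the letters searched.
Prtn3, chr10:79879417-79879666, forward strand: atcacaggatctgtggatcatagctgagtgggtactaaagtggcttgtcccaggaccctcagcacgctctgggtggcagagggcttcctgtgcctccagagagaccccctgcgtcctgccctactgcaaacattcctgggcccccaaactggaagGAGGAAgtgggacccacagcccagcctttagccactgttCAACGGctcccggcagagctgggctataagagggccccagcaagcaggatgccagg
Elane, chr10:79886062-79886311, forward strand: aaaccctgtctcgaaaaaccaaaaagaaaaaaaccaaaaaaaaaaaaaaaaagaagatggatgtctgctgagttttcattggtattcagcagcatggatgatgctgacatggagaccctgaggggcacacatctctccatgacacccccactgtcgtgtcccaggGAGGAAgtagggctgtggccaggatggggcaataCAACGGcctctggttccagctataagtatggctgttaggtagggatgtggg
Mpo, chr11:87793534-87793783, forward strand: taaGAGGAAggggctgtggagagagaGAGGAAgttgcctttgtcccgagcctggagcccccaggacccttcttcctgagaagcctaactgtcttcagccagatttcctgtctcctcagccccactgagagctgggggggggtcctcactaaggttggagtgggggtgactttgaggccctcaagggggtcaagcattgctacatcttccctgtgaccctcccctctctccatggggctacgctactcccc
Ctsg, chr14:56102575-56102824, reverse strand: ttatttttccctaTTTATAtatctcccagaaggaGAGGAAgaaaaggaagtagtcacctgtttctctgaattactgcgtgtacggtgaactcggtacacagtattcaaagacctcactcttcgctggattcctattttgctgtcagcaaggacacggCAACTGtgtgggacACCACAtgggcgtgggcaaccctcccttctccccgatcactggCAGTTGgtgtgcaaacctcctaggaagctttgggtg

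Letters known from the sites of myeloid transcription factors were searched on both strands, over 250 bases before to 50 after the start site. They were GAGGAA for PU.1 sites, CAACNG for MYB sites, TTGCNNAA for C/EBP sites and TGTGGT for RUNX sites, and the TATA box was searched as TATAAA. No match overlapped another in these promoters. GAGGAA was present in all 4 promoters shown and in 5 of the 7 genes with a promoter in the table, against 28.3% of 32851 mouse promoters. CAACNG was present in *Prtn3*, *Elane* and *Ctsg* and in 5 of 7 genes in all, against 35.0% of promoters. *Prtn3* held GAGGAA 95 bases and CAACGG 56 bases before its start, and *Elane* held them 85 and 51 bases before its own. TTGCNNAA was found in *Fcnb* and *Ms4a3* (10.8% of promoters), TGTGGT in *Ctsg* and *Srgn* (16.8%) and TATAAA in *Ctsg* and *Srgn* (13.6%). The table held no promoter for *Prss57* and *Serpinb1a*. These matches describe the letters only.

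The libraries held 15267177 to 17841807 estimated counts. The neutrophil label was checked with 10 marker genes, all of which were detected in every group. Their summed level was 71984 to 73839 CPM in Ly6Ghi and 78243 to 79956 CPM in Ly6Glow but 18937 to 19216 CPM in NL, where CPM is the count scaled to the TMM-normalised library size. Markers of lung epithelium summed to 852 to 946 CPM in NL, against 67.3 to 72.1 in Ly6Ghi and 65.0 to 69.7 in Ly6Glow. Endothelial markers (792 to 858 CPM) and fibroblast markers (442 to 474 CPM) were likewise higher in NL than in Ly6Ghi (122 to 125 and 37.7 to 43.6), while monocyte markers summed to 496 to 531 CPM over all libraries. *Ly6g* itself averaged 119 CPM in NL, 374 in Ly6Ghi and 394 in Ly6Glow, so the mRNA of the sorted surface protein did not separate the 2 tumor groups (log2 fold change 0.08, adjusted p = 0.0577). Since the neutrophil markers were lower in NL, each comparison of the 9 genes with NL is also given after another scaling. It sets every library to the geometric mean of the 10 neutrophil markers, and it was added after the marker levels were seen. Lists and most other genes have TMM values against NL only.

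Mean CPM of the azurophil granule genes was highest in Ly6Ghi, intermediate in Ly6Glow and lowest in NL for all but *Srgn*, and the order of Ly6Glow and NL turned for 6 of these 8 genes when libraries were scaled to neutrophil markers. Compared with NL, 8 of the 9 genes rose in Ly6Ghi and none fell, where 26.3% of all tested genes were called higher and 36.6% lower. Compared with Ly6Ghi, 7 of the 9 fell in Ly6Glow, 1 rose (*Srgn*) and 1 was not called (*Prss57*), against 15.9% of all genes lower and 9.29% higher. All 9 were called higher in Ly6Glow than in NL, against 28.7% of all genes higher and 40.8% lower, and after scaling to neutrophil markers 1 was called higher and 3 lower. Calls required a log2 fold change beyond 0.58 in either direction with an adjusted p no higher than 0.05 (edgeR quasi-likelihood test, Benjamini-Hochberg over all tested genes). In bulk samples, fewer cells that make an mRNA and less of that mRNA per cell cannot be told apart.

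**Figure D1:**
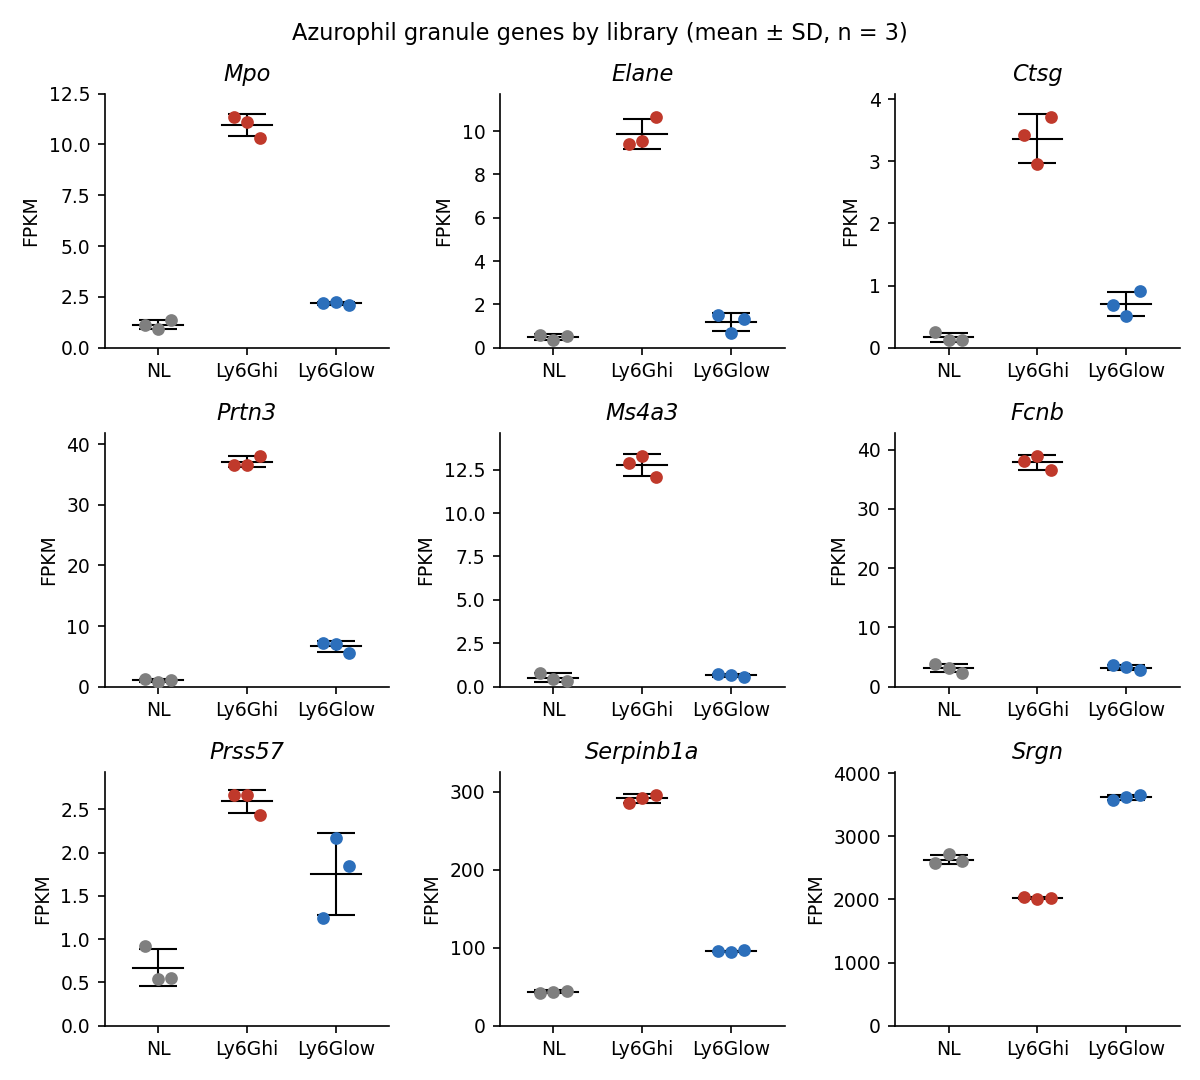
FPKM of each gene in every library (points), with the mean and SD of each group of 3 libraries (black lines). Each panel has its own linear axis from 0. Ly6Ghi stood above both other groups for every gene except *Srgn*, where Ly6Glow was highest.

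*Mpo*, whose product makes hypochlorous acid, had an FPKM of 11.4, 11.1 and 10.3 in the 3 Ly6Ghi libraries, 2.18, 2.23 and 2.12 in Ly6Glow, and 1.1, 0.92 and 1.37 in NL. The 3 groups did not overlap. In the count model *Mpo* was 13.3-fold higher in Ly6Ghi than in NL (log2 fold change 3.74, SE 0.104, adjusted p = 9.27e-19) and 4.27-fold lower in Ly6Glow than in Ly6Ghi (−2.09, SE 0.0947, adjusted p = 3.51e-14). It was 3.12-fold higher in Ly6Glow than in NL (adjusted p = 5.7e-10). That last difference turned to −0.34 after scaling to neutrophil markers (adjusted p = 0.0341), under the fold threshold.

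*Elane*, neutrophil elastase, had an FPKM of 9.41, 9.55 and 10.7 in Ly6Ghi, 1.5, 0.69 and 1.34 in Ly6Glow, and 0.60, 0.35 and 0.54 in NL. Replicate 2 of Ly6Glow was the lowest of its group and came near the highest NL library without overlapping it. *Elane* was 26.8-fold higher in Ly6Ghi than in NL (log2 fold change 4.74, SE 0.217, adjusted p = 6.32e-15) and 7.12-fold lower in Ly6Glow than in Ly6Ghi (−2.83, SE 0.192, adjusted p = 3.24e-11). The NL libraries held only 9, 5 and 8 counts of it. Its call in Ly6Glow over NL (3.76-fold, adjusted p = 3.13e-05) had an estimate of −0.05 under neutrophil-marker scaling (adjusted p = 0.891).

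*Prtn3*, proteinase 3, was the most abundant of the 4 proteases by FPKM in each group. It stood at 36.6, 36.5 and 38.1 FPKM in Ly6Ghi, 7.24, 7.07 and 5.59 in Ly6Glow and 1.26, 0.85 and 1.02 in NL. The groups were widely separated, and the 48.4-fold difference between Ly6Ghi and NL was the largest among the 9 genes (log2 fold change 5.60, SE 0.121, adjusted p = 1.29e-20). In Ly6Glow *Prtn3* fell 4.75-fold from Ly6Ghi (−2.25, SE 0.088, adjusted p = 3.3e-15) and stayed 10.2-fold above NL (adjusted p = 5.25e-14). It was the only one of the 9 genes still called higher in Ly6Glow than in NL after scaling to neutrophil markers, at 2.59-fold (adjusted p = 5.03e-07).

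*Ctsg*, cathepsin G, was the least abundant of the 9 genes in NL. Its FPKM was 3.43, 2.95 and 3.72 in Ly6Ghi, 0.69, 0.51 and 0.91 in Ly6Glow, and 0.25, 0.13 and 0.12 in NL, where the counts were 4, 2 and 2. The groups did not overlap despite these low counts. Summed over the libraries of a group and scaled for library size, 166 reads in Ly6Ghi against 8 in NL gave a ratio of 27.9, with an exact 95% interval of 13.8 to 65.7 that covers counting error only. The fitted decrease from Ly6Ghi to Ly6Glow was 4.04-fold (log2 fold change −2.02, SE 0.251, adjusted p = 5.03e-07). Ly6Glow stood 6.52-fold above NL (2.71, SE 0.462, adjusted p = 1.35e-05), a value that was 0.78 and not called relative to neutrophil markers (adjusted p = 0.146).

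*Prss57*, the arginine-cleaving protease also called neutrophil serine protease 4, departed from the other proteases. Its FPKM was 2.67, 2.67 and 2.44 in Ly6Ghi, 1.24, 2.17 and 1.85 in Ly6Glow, and 0.92, 0.54 and 0.55 in NL. On CPM one Ly6Glow library (6.47) reached the lowest Ly6Ghi library (6.44), so these 2 groups overlapped. It rose 5.05-fold in Ly6Ghi over NL (log2 fold change 2.34, SE 0.194, adjusted p = 2.54e-10), whereas its difference between Ly6Glow and Ly6Ghi was −0.38 (95% interval −0.73 to −0.03, adjusted p = 0.061) and was not called. Scaling to neutrophil markers moved that value to −0.80 and brought it past the threshold (adjusted p = 0.000162). Against NL, *Prss57* was 3.89-fold higher in Ly6Glow under TMM (adjusted p = 1.98e-08) and −0.02 relative to neutrophil markers (adjusted p = 0.924).

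Summed over *Elane*, *Ctsg*, *Prtn3* and *Prss57*, the protease FPKM was 52.9 ± 1.77 in Ly6Ghi, 10.3 ± 0.512 in Ly6Glow and 2.38 ± 0.594 in NL (SD, n = 3). *Prtn3* made up 70.1% ± 0.652 of this sum in Ly6Ghi, 64.4% ± 5.83 in Ly6Glow and 44.3% ± 2.32 in NL. The ranges of the Ly6Ghi and Ly6Glow shares did not overlap (69.4% to 70.6% and 57.7% to 67.9%), and both lay above that of NL. The NL sum rests on few reads, with 22 of *Elane*, 8 of *Ctsg*, 49 of *Prtn3* and 89 of *Prss57* over its libraries.

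*Ms4a3* and *Fcnb* showed the steepest decreases from Ly6Ghi to Ly6Glow among the 9 genes. The FPKM of *Ms4a3* was 12.9, 13.3 and 12.1 in Ly6Ghi, 0.75, 0.67 and 0.58 in Ly6Glow, and 0.79, 0.44 and 0.31 in NL. It fell 16.0-fold from Ly6Ghi to Ly6Glow (log2 fold change −4.0, SE 0.187, adjusted p = 5.96e-14) after standing 33.7-fold higher in Ly6Ghi than in NL (5.07, SE 0.186, adjusted p = 1.17e-16). *Ms4a3* in Ly6Glow and NL overlapped on FPKM. Its call between those groups (1.07, SE 0.362, adjusted p = 0.0092) was lost without NL replicate 3 (0.81, adjusted p = 0.0518) and turned to −0.89 (adjusted p = 0.0263) under neutrophil-marker scaling, where it was called lower.

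*Fcnb* had an FPKM of 38.1, 39.0 and 36.5 in Ly6Ghi, 3.62, 3.27 and 2.79 in Ly6Glow, and 3.79, 3.23 and 2.36 in NL. Ly6Ghi stood alone, and the ranges of Ly6Glow and NL overlapped. The gene was 16.5-fold higher in Ly6Ghi than in NL (log2 fold change 4.04, SE 0.0993, adjusted p = 1.07e-19) and 10.0-fold lower in Ly6Glow than in Ly6Ghi (−3.33, SE 0.103, adjusted p = 7.55e-17). Its Ly6Glow value against NL was 0.71 (adjusted p = 0.000436), which dropped to 0.55 and under the threshold without NL replicate 3, and was −1.27 and called lower under neutrophil-marker scaling (adjusted p = 1.65e-07).

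*Serpinb1a*, the inhibitor, was far more abundant by FPKM than *Elane*, *Ctsg*, *Prtn3* and *Prss57*, not all of which need be its targets. Its FPKM was 285, 292 and 296 in Ly6Ghi, 95.1, 94.4 and 96.4 in Ly6Glow, and 41.2, 43.5 and 45.0 in NL, with no overlap. It rose 9.37-fold in Ly6Ghi over NL (log2 fold change 3.23, SE 0.0372, adjusted p = 1.05e-24) and fell 2.6-fold in Ly6Glow (−1.38, SE 0.034, adjusted p = 1.81e-18). It was 3.6-fold higher in Ly6Glow than in NL under TMM (adjusted p = 5.55e-21) and −0.14 relative to neutrophil markers (adjusted p = 0.00293), under the fold threshold. The ratio of *Serpinb1a* to the summed protease FPKM was 5.51 ± 0.136 in Ly6Ghi, 9.30 ± 0.562 in Ly6Glow and 19.0 ± 4.94 in NL (SD, n = 3). The ranges did not overlap, and the ratio was lowest in Ly6Ghi, the group with the highest level of both. The NL ratio divides by a protease sum of 2.38 ± 0.594 FPKM, which rests on few reads. The close paralogs *Serpinb1b* and *Serpinb1c* averaged under 0.6 CPM in each group and were not tested. How the authors' counting shared reads between the paralogs is not given in the sources used here.

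*Srgn*, the most abundant of the 9 genes in every group, did not follow the others. Its FPKM was 2036, 2007 and 2029 in Ly6Ghi, 3584, 3617 and 3662 in Ly6Glow, and 2574, 2717 and 2605 in NL. Ly6Glow was highest on FPKM and on CPM, 2.10-fold over Ly6Ghi in the count model (log2 fold change 1.07, SE 0.0267, adjusted p = 2.13e-18) and 2.22-fold over NL (1.15, SE 0.0267, adjusted p = 3.4e-20). Between Ly6Ghi and NL its direction depended on the scaling, at 0.08 with TMM (adjusted p = 0.0116, not called), −0.12 with upper-quartile scaling, −0.38 on log2(FPKM + 1) and −1.48 relative to neutrophil markers. Against NL, *Srgn* in Ly6Glow was likewise −0.84 relative to neutrophil markers.

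**Figure D2:**
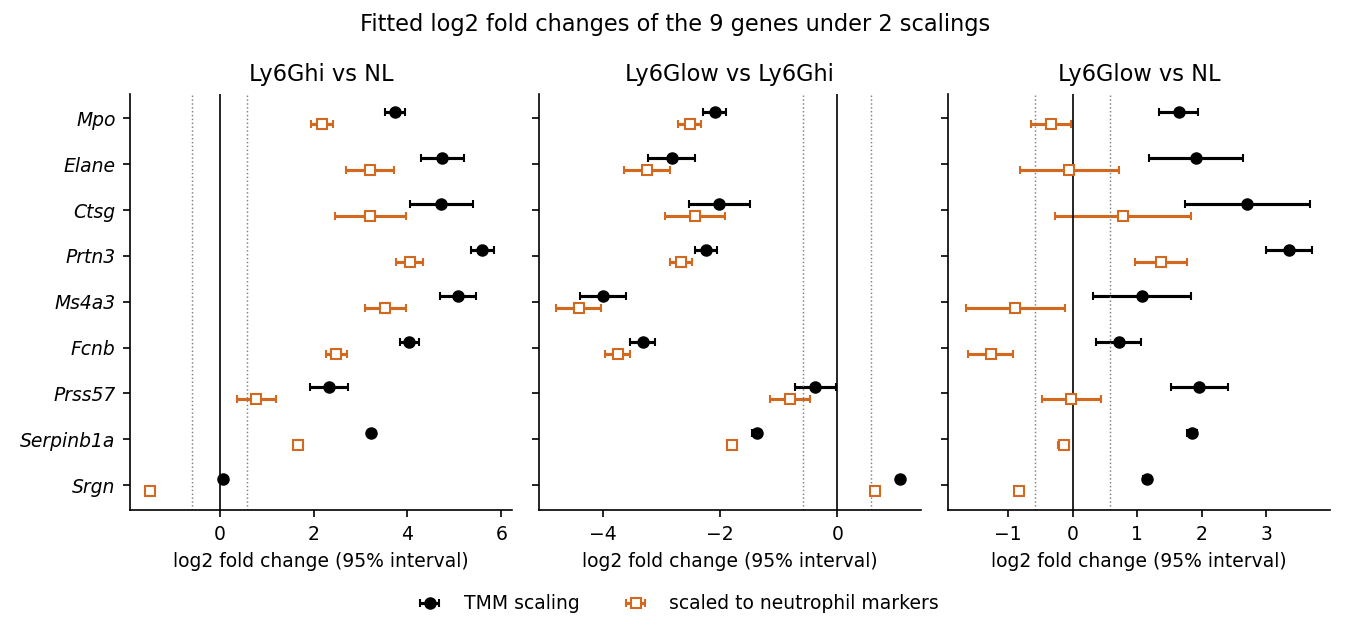
Fitted log2 fold changes of the 9 genes with 95% intervals in the 3 comparisons, under TMM scaling (filled circles) and after scaling libraries to 10 neutrophil markers (open squares). Dotted lines mark ±0.58. Under both scalings 8 genes lay above 0.58 in Ly6Ghi against NL, whereas in Ly6Glow against NL the values of 9 genes above 0.58 became 1 called higher and 3 called lower.

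Relative to neutrophil markers the Ly6Ghi increase over NL held for all 8 genes. It was 4.53-fold for *Mpo*, 9.20-fold for *Elane*, 9.26-fold for *Ctsg*, 16.5-fold for *Prtn3*, 11.6-fold for *Ms4a3*, 5.60-fold for *Fcnb*, 3.18-fold for *Serpinb1a* and 1.72-fold for *Prss57*, each called. The decrease in Ly6Glow against Ly6Ghi was called for 8 genes on that scale. The median of all tested genes was −1.64 in Ly6Ghi against NL, −0.47 in Ly6Glow against Ly6Ghi and −2.14 in Ly6Glow against NL on that scale, compared with −0.09, −0.04 and −0.16 under TMM. The neutrophil markers themselves include genes called between the tumor groups (5 of 10 higher in Ly6Glow), so this scale is not neutral either.

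Among the genes, the FPKM order was *Srgn*, *Serpinb1a*, *Fcnb*, *Prtn3*, *Ms4a3*, *Mpo*, *Elane*, *Ctsg* and *Prss57* in Ly6Ghi, with *Fcnb* and *Prtn3* overlapping and *Mpo* and *Elane* overlapping. In Ly6Glow, *Prtn3* stood above *Fcnb*, and *Mpo*, *Prss57*, *Elane*, *Ctsg* and *Ms4a3* each overlapped the next in that order. In NL the genes from *Mpo* through *Prtn3*, *Prss57* and *Ms4a3* to *Elane* each overlapped the next. *Ms4a3* stood above *Mpo* in Ly6Ghi and last of the 9 genes in Ly6Glow.

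Markers of several other cell types moved with these genes in part or in full. Of all tested genes, 26.3% were called higher and 36.6% lower in Ly6Ghi against NL, and 9.29% and 15.9% in Ly6Glow against Ly6Ghi. All 5 eosinophil markers rose in Ly6Ghi over NL and all 5 fell in Ly6Glow against Ly6Ghi, with a summed level of 79.5 to 85.9 CPM in Ly6Ghi, 7.24 to 8.35 in Ly6Glow and 3.01 to 4.24 in NL. *Mpo*, *Elane*, *Ctsg* and *Prtn3* together summed to 76.4 to 77.9 CPM in Ly6Ghi, 15.5 to 17.5 in Ly6Glow and 2.65 to 3.79 in NL. The eosinophil granule gene *Prg2*, major basic protein, averaged 29.4 CPM in Ly6Ghi, 0.619 in Ly6Glow and 0.226 in NL. Of 5 tested basophil or mast cell markers 4 rose in Ly6Ghi over NL and 4 fell in Ly6Glow against Ly6Ghi, with sums of 40.2 to 42.2, 22.5 to 26.9 and 25.6 to 28.1 CPM in Ly6Ghi, Ly6Glow and NL. The 4 B cell markers moved alike, with 3 higher in Ly6Ghi than in NL and all 4 lower in Ly6Glow than in Ly6Ghi, and summed to 39.8 to 41.3 CPM in Ly6Ghi, 24.2 to 25.8 in Ly6Glow and 21.6 to 24.1 in NL. Of 5 tested T or NK cell markers 4 were lower in Ly6Glow than in Ly6Ghi, but none was higher and 3 were lower in Ly6Ghi than in NL, with sums of 41.5 to 43.4, 24.9 to 27.1 and 48.5 to 50.9 CPM in Ly6Ghi, Ly6Glow and NL. None of the markers of these 4 classes was at 0 over a whole group. Alveolar macrophage markers summed to 1474 to 1526 CPM in Ly6Ghi and 1456 to 1474 in NL but 308 to 327 in Ly6Glow, and *Chil3*, which specific granules also hold, made up most of that sum. By gene, none of these 8 markers was higher and 5 were lower in Ly6Ghi than in NL (median log2 fold change −1.30), and 6 were lower in Ly6Glow than in Ly6Ghi. The methods name CD45 and Ly6g for the sort of these libraries, and their isolation of lung neutrophils also stains CD11b. The part of these other cells in the results was not tested.

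**Figure D3:**
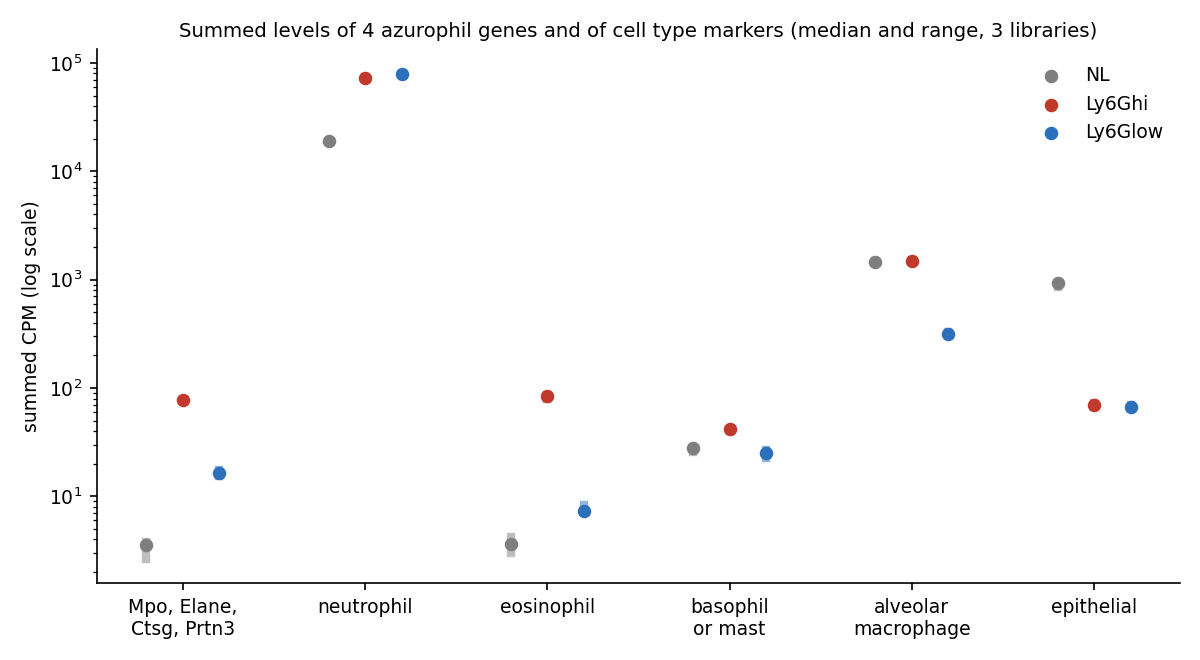
Summed CPM (log axis) of *Mpo*, *Elane*, *Ctsg* and *Prtn3* and of marker lists of 5 cell types, as the median (point) and range (bar) of 3 libraries per group. The 4 azurophil genes and the eosinophil markers had the same order, Ly6Ghi above Ly6Glow above NL, whereas neutrophil markers were as high in Ly6Glow as in Ly6Ghi or higher.

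The pair of changes shared by these genes, higher in Ly6Ghi than in NL and lower in Ly6Glow than in Ly6Ghi, was called in 530 of 14108 genes (3.76%). *Mpo*, *Elane*, *Ctsg* and *Prtn3* had median log2 fold changes of 4.73 and −2.17 in these comparisons. The 10 genes nearest to that pair of values, by straight-line distance among 13427 genes with at least 1 CPM in their highest group, were *Ctsg*, *Elane*, *Prtn3*, *Ccr3*, *Mpo*, *Il4*, *Heatr4*, *Cebpe*, *Fcnb* and *Prss34*. The 4 genes whose median set the centre lie near it by construction, so their ranks are not a result. *Serpinb1a* and *Ms4a3* followed at ranks 14 and 16, *Prss57* at 161 and *Srgn* at 8390. *Ccr3*, the eotaxin receptor of eosinophils, had values of 3.86 and −2.09 and averaged 15.8 CPM in Ly6Ghi. *Prss34*, a basophil protease, had 5.21 and −0.84. *Cebpe*, which encodes the transcription factor C/EBP epsilon of the promyelocyte to myelocyte stage, had 3.52 and −2.56. Relative to neutrophil markers the Ly6Ghi increase over NL was 2.3 for *Ccr3*, 3.68 for *Prss34* and 1.96 for *Cebpe*, each called. Likeness here rests on 2 fold changes per gene, which share the Ly6Ghi libraries.

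**Figure D4:**
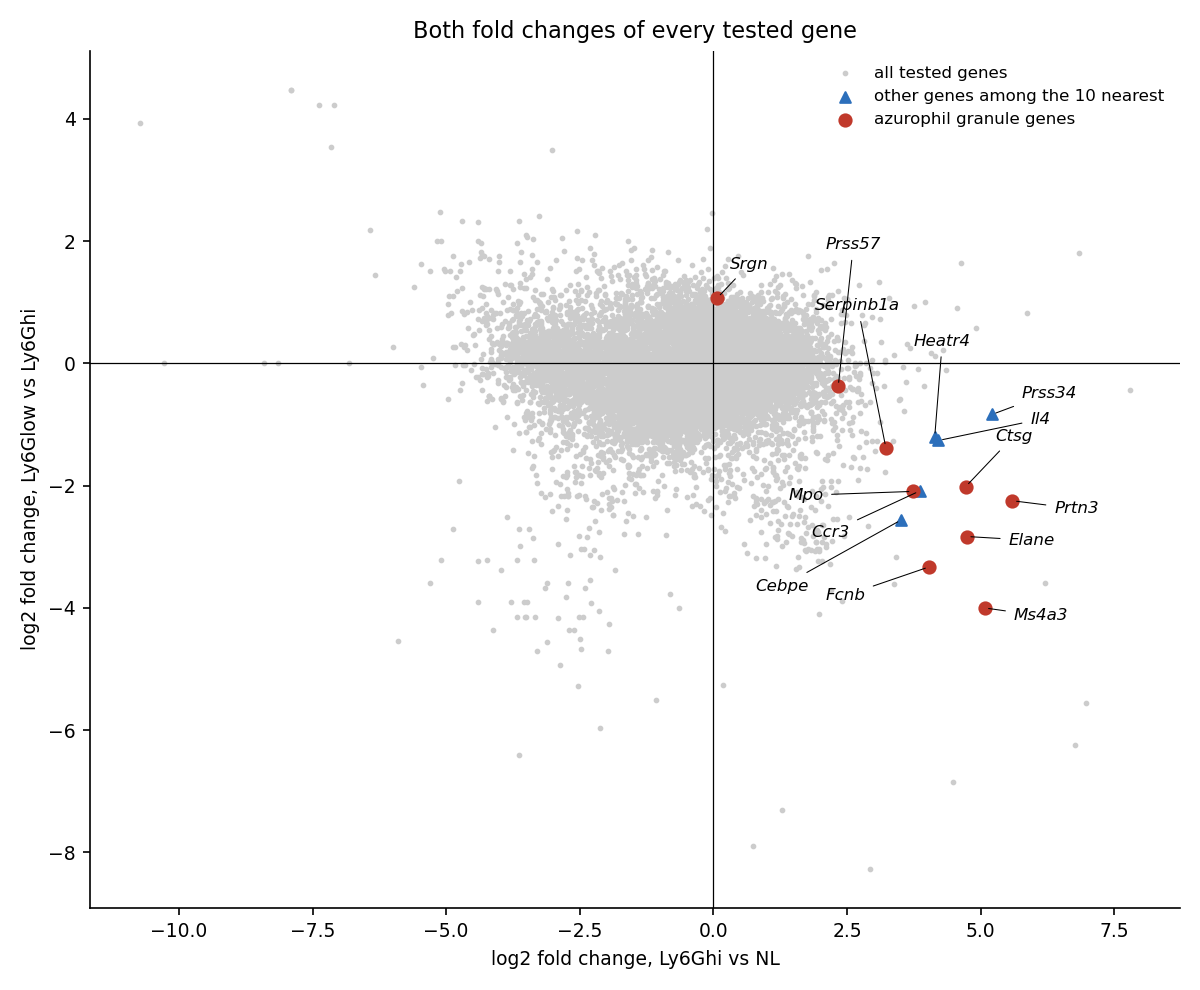
Log2 fold change in Ly6Ghi against NL (x axis) and in Ly6Glow against Ly6Ghi (y axis) for the 14108 tested genes (grey), the 9 azurophil granule genes (circles) and the 5 other genes among the 10 nearest to the median of *Mpo*, *Elane*, *Ctsg* and *Prtn3* (triangles). Of the 9 genes, 7 lie at the lower right, *Prss57* lies near the horizontal axis and *Srgn* near the vertical axis.

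Transcription factors known to act on granule genes were mostly lower or not called in Ly6Glow against Ly6Ghi. Of 18 tested, 1 was higher and 9 lower in that comparison (5.56% and 50%, against 9.29% and 15.9% of all tested genes). In Ly6Ghi against NL 8 were higher and 6 lower (44.4% and 33.3%, against 26.3% and 36.6%). *Cebpe* averaged 4.13 CPM in NL, 47.4 in Ly6Ghi and 8.07 in Ly6Glow. In Ly6Glow against NL it was called higher under TMM (0.96) but lower relative to neutrophil markers (−1.02). *Gfi1*, a repressor needed for neutrophil differentiation, was 1.75-fold higher in Ly6Ghi than in NL (log2 fold change 0.80, adjusted p = 0.000141) but −0.75 relative to neutrophil markers, and it fell in Ly6Glow by 2.27 on the log2 scale (adjusted p = 3.3e-08). *Myb*, a driver of the progenitor program, was −0.36 in Ly6Ghi against NL (adjusted p = 0.0235, not called) and fell by 1.86 in Ly6Glow (adjusted p = 1.85e-07). *Cebpa*, which starts the granulocytic program, was lower in both comparisons (−1.68 and −0.98).

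Other azurophil proteins, most of them lysosomal enzymes shared with other cells, did not show the pattern of the 9 genes. Of 21 tested, 3 were higher and 4 lower in Ly6Ghi than in NL (14.3% and 19.0%, against 26.3% and 36.6% of all tested genes), with a median log2 fold change of −0.14. None was higher and 7 were lower in Ly6Glow than in Ly6Ghi (33.3% lower, against 15.9%), with a median of −0.22 against −0.04 for all tested genes. *Lyz2*, lysozyme, fell in Ly6Glow by 1.21 and had −0.03 in Ly6Ghi against NL (adjusted p = 0.264). *Ctsc*, the dipeptidyl peptidase that activates the granule proteases, stayed under the fold threshold in all 3 comparisons (−0.20, −0.28 and −0.48).

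Lists of the later granules and of mature neutrophils had smaller median changes than the 9 azurophil genes. Of 22 specific granule genes 18 were higher and 1 lower in Ly6Ghi against NL (81.8% and 4.55%, against 26.3% and 36.6% of all genes). Their median was 1.94 under TMM, and it was not computed relative to neutrophil markers. In Ly6Glow against Ly6Ghi 1 was higher and 10 lower (4.55% and 45.5%, against 9.29% and 15.9%), with a median of −0.46. *Camp*, cathelicidin, fell in Ly6Glow by 2.55 and *Ltf*, lactoferrin, by 1.91. Of 17 mature neutrophil genes, 9 were higher and none lower in Ly6Glow than in Ly6Ghi (52.9% higher, against 9.29% of all genes). Their median was 0.64, and *Il1b* (1.26) and *Ifitm1* (1.07) were among the higher. The gelatinase granule list of 11 genes, *Fcnb* included, had 3 higher and 3 lower in Ly6Glow than in Ly6Ghi (27.3% each, median −0.01). The median of the 9 azurophil genes was 4.04 in Ly6Ghi against NL and −2.09 in Ly6Glow against Ly6Ghi.

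**Figure D5:**
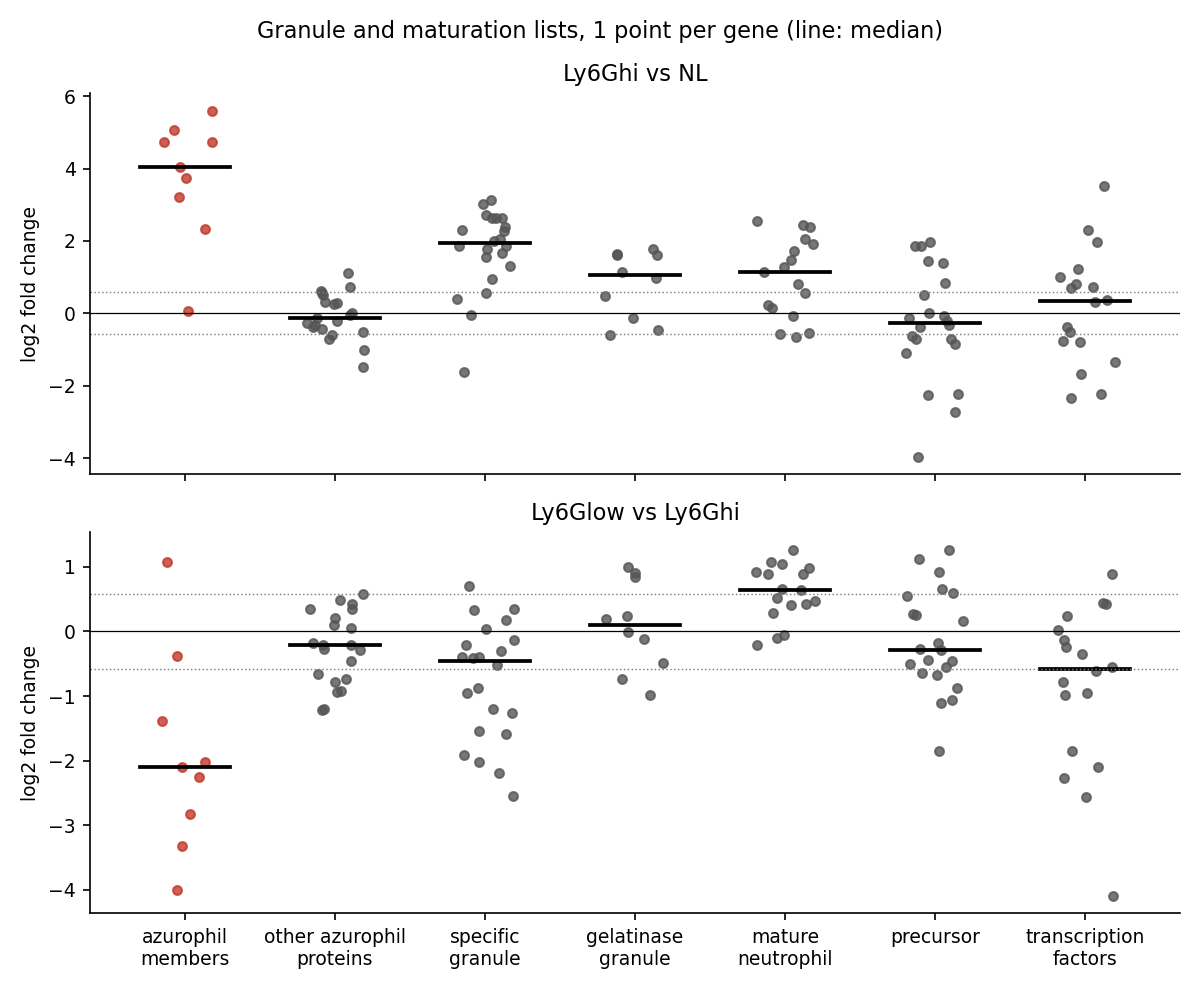
Log2 fold change of each tested gene (points) in 7 lists, in Ly6Ghi against NL (top) and Ly6Glow against Ly6Ghi (bottom), with the median of each list (line) and dotted lines at ±0.58. *Fcnb* is plotted with the azurophil genes only. The 9 azurophil genes have the highest median at the top and the lowest at the bottom. The separate list of other azurophil proteins has medians of −0.14 and −0.22. Genes and lists were chosen with earlier results of these data known, so this order is not a test.

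Genes of protease inhibitor families other than *Serpinb1a* went both ways, and not all of them are known to act on the granule proteases. Of 12 tested, 4 were higher and 7 lower in Ly6Ghi than in NL (33.3% and 58.3%, against 26.3% and 36.6% of all tested genes). In Ly6Glow against Ly6Ghi 1 was higher and 3 lower (8.33% and 25.0%, against 9.29% and 15.9%). *Slpi*, the secreted inhibitor of elastase and cathepsin G, averaged 106 CPM in NL, 279 in Ly6Ghi and 363 in Ly6Glow. Under TMM *Slpi* was higher in Ly6Ghi than in NL (log2 fold change 1.39, adjusted p = 4.87e-17), a value not given relative to neutrophil markers. In Ly6Glow against Ly6Ghi it had 0.38, under the fold threshold, so it did not share the decrease of *Serpinb1a*. *Wfdc17* was the inhibitor-family gene that rose in Ly6Glow over Ly6Ghi (1.18, adjusted p = 1.97e-17).

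The genes within 3 places of *Elane*, *Prtn3*, *Prss57* or *Ctsg* were looked up as well. Of 16 such genes 9 were tested. In Ly6Ghi against NL 5 were higher and none lower, where 26.3% of all tested genes were higher and 36.6% lower. Of these 5, only *Mcpt8* was also called higher relative to neutrophil markers (2.01). In Ly6Glow against Ly6Ghi 1 was higher and 3 lower, against 9.29% and 15.9% of all tested genes. On chromosome 10, *Cfd*, next to *Elane*, was under 0.3 CPM in each group and was not tested. *Plppr3* on the other side of *Prtn3* averaged 5.00, 7.51 and 5.47 CPM in NL, Ly6Ghi and Ly6Glow, with log2 fold changes of 0.58 in Ly6Ghi against NL (adjusted p = 0.000985, called, but −0.97 relative to neutrophil markers) and −0.46 in Ly6Glow against Ly6Ghi. *Med16*, a Mediator subunit gene beyond *Cfd*, had 1.07 and −0.63 in these comparisons, both called, and the first was −0.49 relative to neutrophil markers. *R3hdm4*, the next gene, had 1.91 in Ly6Ghi against NL (0.35 relative to neutrophil markers) and 0.09 in Ly6Glow against Ly6Ghi. Beside *Prss57*, *Palm* had 1.52 in Ly6Ghi against NL (−0.04 relative to neutrophil markers) and −0.12 in Ly6Glow against Ly6Ghi, and *Fstl3* was lower in Ly6Glow than in Ly6Ghi (−0.81, adjusted p = 0.000258). *Fstl3* and *Palm* overlap the ends of *Prss57* by 1157 and 1113 bases in the annotation, and how reads there were counted is not given in the sources used here. On chromosome 14, *Mcpt8*, a basophil protease gene next to *Ctsg*, averaged 0.980, 11.7 and 6.79 CPM and rose in Ly6Ghi over NL (3.57, adjusted p = 1.56e-14) and fell in Ly6Glow (−0.78, adjusted p = 3.07e-05).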

How the data were processed

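RNA of sorted lung neutrophils was measured in 9 libraries, 3 each of Ly6Ghi, Ly6Glow and NL, grouped by title and treatment label. The authors deposited an estimated count and an FPKM value per gene and library. The estimated counts deposited by the authors are not normalized, 37.9% of them are whole, and all were rounded for the tests. The FPKM values deposited by the authors are scaled for transcript length and depth. The genome build is mm10 per the submitters' processing notes, and the aligner and counting program are not given in the sources used here. Of 22064 genes listed 3739 were blank. The authors' methods name DESeq2 with a log2 fold change above 0.58.

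The count model was fitted with edgeR 4.0.16 in R 4.3.3 (filterByExpr, TMM, quasi-likelihood F test, all 9 libraries in 1 fit, Benjamini-Hochberg over 14108 genes), with calls past 0.58 on the log2 scale at an adjusted p no higher than 0.05. The standard error was the fold change over the root of F. Alternatives used DESeq2 1.42.0 and limma 3.58.1, and the fit was tested on simulated data. Replicates differed by more than sampling noise in every pair (chi-square per degree of freedom 1.41 to 5.30, highest for NL replicate 2). Small differences were resolved for abundant genes, with a common biological coefficient of variation of 0.0346. That value is the spread between libraries, and whether these are separate mice is not given. Counts under 10 limited *Elane*, *Ctsg* and *Ms4a3* in NL. Levels of different genes were compared on FPKM only.

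The genes and lists were chosen with earlier results of these data known. The 9 genes were always named, as were the 10 nearest genes, neighbours within 3 genes of a protease, a fixed set of regulators, inhibitors and markers, and genes could be named from the 3 with the largest called change per list, direction and comparison.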

Additional observations from a re-analysis of the deposited data

How the results depend on the processing

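Across the 23 alternatives each, the 8 increases in Ly6Ghi over NL and the 7 decreases in Ly6Glow kept direction and call wherever the gene was tested. Unadjusted p and no fold threshold reused the main fit under looser rules, so they could not lose a call or turn a direction. A stricter fold threshold of 1 reused the same estimates, so it could not turn a direction. With at least 10 counts required in every library, *Elane*, *Ctsg* and *Ms4a3* were not tested, and the counts became 4 lower in Ly6Glow than in Ly6Ghi, 5 higher in Ly6Ghi than in NL and 5 higher in Ly6Glow than in NL. With limma on log2(FPKM + 1), with or without an FPKM minimum of 1, 4 genes were higher in Ly6Glow than in NL. Scaled to neutrophil markers, 1 gene was called lower in Ly6Ghi than in NL (*Srgn*, −1.48), and in Ly6Glow against NL 1 was higher and 3 lower, with values of −0.34 (*Mpo*), −0.052 (*Elane*), −0.89 (*Ms4a3*), −1.27 (*Fcnb*), −0.021 (*Prss57*), −0.14 (*Serpinb1a*) and −0.84 (*Srgn*). *Srgn* in Ly6Ghi against NL was also negative with upper-quartile scaling (−0.12), the 10-count filter (−0.10) and limma on FPKM (−0.38 with each pseudocount and with the minimum). The cause of these changes beyond the filter and the scaling was not tested.

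With the replicate number as a block the counts of called genes were 7 lower and 1 higher, 8 higher, and 9 higher in the 3 comparisons, as without it. Same-numbered libraries did not deviate together (correlations of −0.0683 to 0.0766), so the numbers were not taken as pairs. Leaving out NL replicate 3 ended the calls of *Ms4a3* and *Fcnb* in Ly6Glow over NL.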

Other observations

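The enzymes that build chondroitin sulfate chains on serglycin moved about as often as all tested genes in Ly6Glow against Ly6Ghi. Of 18 tested, 2 were higher and 2 lower (11.1% each, against 9.29% and 15.9% of all genes). In Ly6Ghi against NL 7 were higher and 8 lower (38.9% and 44.4%, against 26.3% and 36.6%). Those higher in Ly6Glow than in Ly6Ghi were *Xylt1*, a xylosyltransferase that starts the chain (log2 fold change 0.61, adjusted p = 3.02e-09), and *Chst11*, a chondroitin sulfotransferase (0.58, adjusted p = 3.01e-12). Those lower were *Chpf*, a chondroitin polymerizing factor (−0.85, adjusted p = 0.0063), and *Chst13*, another sulfotransferase (−0.81, adjusted p = 9.45e-05).

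Genes of granulocyte and monocyte progenitors other than the azurophil genes were called in Ly6Ghi against NL about as often as all tested genes. Of 22 tested, 6 were higher and 9 lower (27.3% and 40.9%, against 26.3% and 36.6% of all genes). In Ly6Glow against Ly6Ghi 4 were higher and 6 lower (18.2% and 27.3%, against 9.29% and 15.9%). *Clec12a*, an inhibitory lectin receptor of myeloid cells, was higher in Ly6Ghi than in NL (1.86) and lower in Ly6Glow than in Ly6Ghi (−1.10), and the stem cell factor receptor gene *Kit* was higher in both comparisons (0.83 and 1.11). The listed genes *Sox4* (−3.97) and *Igfbp4* (−2.73) were lower in Ly6Ghi than in NL. All these values against NL are under TMM and are not given relative to neutrophil markers. NL also had higher levels of lung epithelial, endothelial and fibroblast markers, and the part of such cells in these values was not tested.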
